A study of Caenorhabditis elegans with 2 samples.

Results

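Binding of the tagged homeodomain protein CEH-82 was examined at the 8 genes that encode the subunits of the chaperonin TRiC (also called CCT), cct-1 to cct-8, among 19973 annotated protein-coding genes. The genes were taken by name, with earlier results of these data known. The data are ChIP-seq peak lists from whole Caenorhabditis elegans at larval stage L3, from both sexes pooled, in 1 group of 2 biological replicates. The worms were of strain OP212, which carries unc-119(ed3) III and ddEx58, and the precipitated protein was CEH-82 fused to enhanced green fluorescent protein. In worm nomenclature the letters Ex name an extrachromosomal array. The promoter that drives the fusion was not given in the sources used here. Worms without the tag were not analysed here, and there was no second condition to compare with.

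TRiC is a cytosolic folding machine of stacked rings in which every subunit is the product of a different gene. ATP binding and hydrolysis close the ring over an unfolded protein, and actins and tubulins are its best known substrates. Prefoldin, a separate complex, delivers some of these proteins to the ring. Because each subunit occupies its own place in the ring, all of the cct genes are needed for a working complex.

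A gene was scored by the summits that lay from 500 bp upstream to 100 bp downstream of its annotated start. Its value is the signal value of the strongest such summit, as the authors deposited it, and the sources used here do not state its scale. The authors' reproducible list held 748 peaks, with signal values from 26.9 to 330. Candidate lists, which mix peaks with background, held 30000 entries for the pooled replicates, 30000 for replicate 1 and 22611 for replicate 2. Library depth is unknown. Signal values of separately called lists are not on one scale, so ranks within a list are given beside them.

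Of the 8 TRiC genes, cct-1 and cct-8 had a reproducible peak (2 of 8), while 2.39% of all protein-coding genes had one. The sites at cct-7 and cct-6 came next and were not in the authors' list, cct-7 by a narrow margin and cct-6 further down. At cct-4, cct-5 and cct-2 there were only weak candidate entries, and at cct-3 there was none. In every one of the 4 stronger cases the summit lay between the cct gene and a gene transcribed away from it, and it lay nearer to the start of that neighbour.

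The sequence around these 4 pooled summits is shown because they hold the 4 highest pooled values among the TRiC genes. Each line gives 200 bases of ce11, centred on the summit and written 5′ to 3′ on the strand of the cct gene. The positions are chrII:8185100-8185299 (plus strand) for cct-1, chrIV:1094286-1094485 (minus strand) for cct-8, chrV:1871855-1872054 (plus strand) for cct-7 and chrIII:5855899-5856098 (minus strand) for cct-6. Capitals mark matches on either strand to any of 7 short words, which were the G- and C-rich words CTGCGTC, then GTCTC, then TGCGC, the repeat GAGAGAG, the palindrome GCGCGC, the homeodomain core TAAT and the heat shock core GAANNTTC.
cct-1: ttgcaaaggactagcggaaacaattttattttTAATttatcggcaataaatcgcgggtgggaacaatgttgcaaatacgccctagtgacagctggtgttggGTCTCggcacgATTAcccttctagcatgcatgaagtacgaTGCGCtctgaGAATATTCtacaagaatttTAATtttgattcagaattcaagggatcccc
cct-8: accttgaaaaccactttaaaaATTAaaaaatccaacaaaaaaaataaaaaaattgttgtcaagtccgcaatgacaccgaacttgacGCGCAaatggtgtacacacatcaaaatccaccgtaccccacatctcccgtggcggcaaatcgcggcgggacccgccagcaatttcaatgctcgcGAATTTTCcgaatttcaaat
cct-7: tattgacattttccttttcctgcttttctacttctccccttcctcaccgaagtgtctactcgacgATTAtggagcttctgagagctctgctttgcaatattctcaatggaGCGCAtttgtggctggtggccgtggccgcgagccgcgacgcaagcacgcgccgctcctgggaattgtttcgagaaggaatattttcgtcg
cct-6: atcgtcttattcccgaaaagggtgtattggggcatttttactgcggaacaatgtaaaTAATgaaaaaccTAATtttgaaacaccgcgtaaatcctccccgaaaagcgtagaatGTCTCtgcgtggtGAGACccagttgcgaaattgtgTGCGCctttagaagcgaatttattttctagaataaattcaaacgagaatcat

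The strongest site was at cct-1 (WBGene00000377, chromosome II, 8185443 to 8187601, plus strand), which encodes the alpha subunit. Its reproducible peak (8185100 to 8185287) had a signal value of 138 and rank 24 among the 748 peaks. The signal value was 96.6 in replicate 1 (rank 25) and 40.7 in replicate 2 (rank 23), so the site held almost the same place in both lists. Only 11 protein-coding genes (0.0551%) had a pooled value at or above it, cct-1 itself and its neighbour mig-5 included. The share was 0.0601% in replicate 1 and 0.0350% in replicate 2. The peak was 188 bp wide, whereas 91.4% of reproducible peaks had the common width of 340 bp. Its summit lay 243 bp upstream of cct-1.

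The second site was at cct-8 (WBGene00021934, chromosome IV, 1087108 to 1093920, minus strand), which encodes the theta subunit. The peak (1094216 to 1094555) had a signal value of 74.3 and rank 77 in the reproducible list. Replicate 1 gave 49.4 (rank 100) and replicate 2 gave 24.6 (rank 61). A pooled value at or above that of cct-8 was found at 46 protein-coding genes (0.230%), and the share was 0.350% in replicate 1 and 0.180% in replicate 2. The summit was 466 bp upstream of the annotated start, close to the far edge of the window.

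At cct-7 (WBGene00020391, chromosome V, 1872246 to 1875505, plus strand), which encodes the eta subunit, the pooled candidate had a signal value of 26.2 and rank 797. The weakest reproducible peak had 26.9 and rank 748 in the same list, so cct-7 missed it narrowly. The replicates placed this site differently, with 12.0 (rank 2619) in replicate 1 and 12.4 (rank 338) in replicate 2. With replicate 2 alone, cct-7 was among its 748 strongest entries. The summit was 291 bp upstream in the pooled list, and the replicates' summits were 5 bp apart.

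At cct-6 (WBGene00000381, chromosome III, 5853530 to 5855687, minus strand), which encodes the zeta subunit, the pooled value was 22.5 (rank 1043). It was 13.6 in replicate 1 (rank 1918) and 7.79 in replicate 2 (rank 945). A pooled value as high was found at 3.23% of protein-coding genes, and for cct-7 the share was 2.53%. In single replicates the share for cct-6 was 4.79% in replicate 1 and 2.46% in replicate 2, and for cct-7 it was 5.88% and 1.08%. The order of cct-7 and cct-6 changed between the replicates, so neither can be placed above the other. The order of cct-1, then cct-8, then this pair was the same in both replicates.

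The other subunit genes had weak candidate entries or none. cct-4 (WBGene00000379, chromosome II, 8283667 to 8285711), which encodes the delta subunit, had 6.30 in the pooled list (rank 20171), 4.01 in replicate 1 and 3.08 in replicate 2. Its summits did not coincide, since those of the replicates were 233 bp apart. cct-5 (WBGene00000380, chromosome III, 4499188 to 4508114), for the epsilon subunit, had 6.36 in the pooled list (rank 19801) and 3.30 in replicate 2, with no summit in the window in replicate 1. These were different summits, 444 bp upstream in the pooled list and 20 bp upstream in replicate 2. Replicate 1 had an entry of 5.50 at 515 bp upstream, just outside the window. The medians over all entries were 7.30 in the pooled list, 5.94 in replicate 1 and 3.10 in replicate 2. The cct-4 entries were thus below the median in every list. Of the cct-5 entries in the window, only that of replicate 2 exceeded the median of its list.

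cct-2 (WBGene00000378, chromosome II, 8927741 to 8929815), for the beta subunit, had an entry in replicate 1 alone, with 4.37 (rank 25599 of 30000). cct-3 (WBGene00018782, chromosome II, 2233540 to 2243539), for the gamma subunit, had none in any list. The nearest pooled summit to the cct-3 start was 1524 bp away, with a signal value of 5.89, and its closest reproducible peak lay at 46.7 kb. For cct-4 the nearest reproducible peak was that of cct-1, 98.5 kb away. The genes cct-3, cct-5 and cct-8 are annotated as long (10.0, 8.93 and 6.81 kb), and no reproducible summit lay inside them. Across the body of cct-5 the strongest pooled entry had 13.7.

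**Figure D1:**
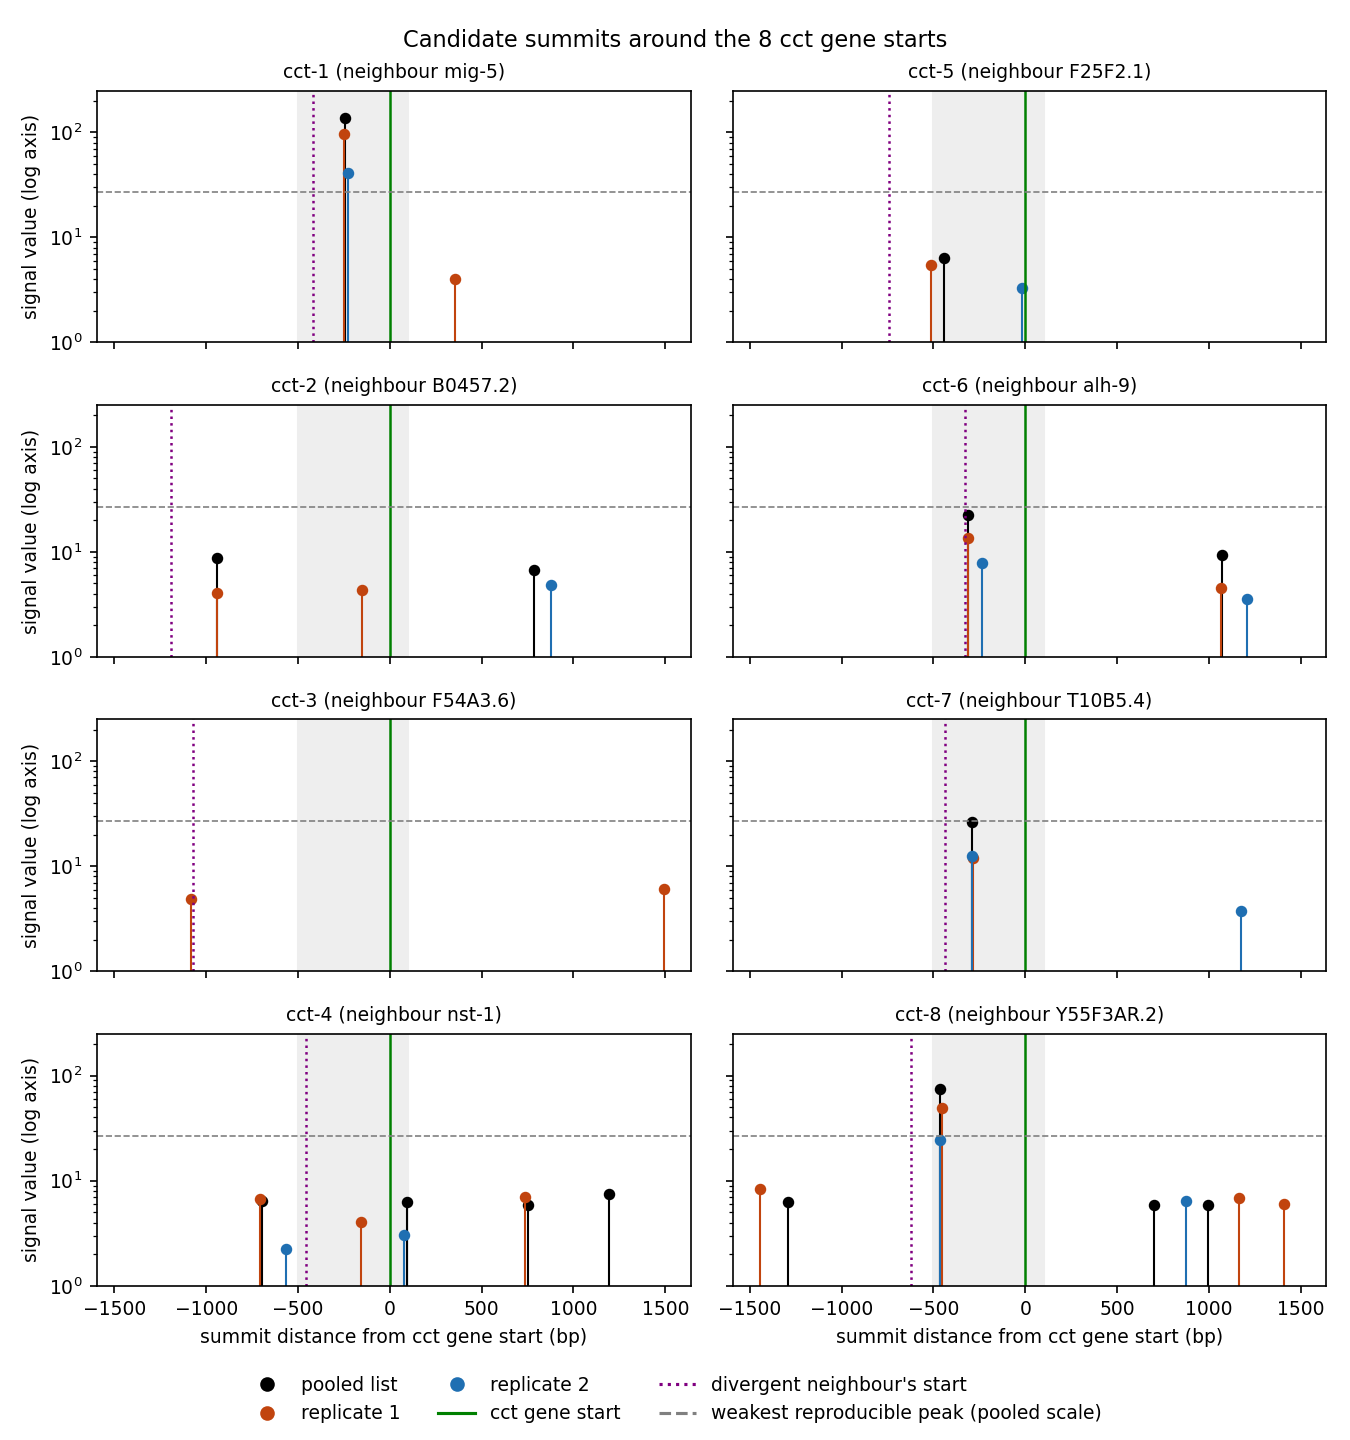
Signal value (log axis) of each candidate summit against its distance from the cct gene start in bp, for the pooled list (black), replicate 1 (orange) and replicate 2 (blue); the band is the scored window, the green line the cct start, the dotted line the start of the divergent neighbour, and the dashed line the weakest reproducible peak, which applies to the pooled list. At cct-1 and cct-8 the pooled points stand at 138 and 74.3, between the starts of each gene pair, while the cct-3 window is empty.

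Counted by list, 6 of the 8 TRiC genes had a summit in the window in the pooled list (25.5% of all protein-coding genes had one), 6 in replicate 1 (24.6%) and 6 in replicate 2 (19.0%). These were not the same genes throughout. A summit in the pooled list and in both replicates was found at 5 of the 8, namely cct-1, cct-4, cct-6, cct-7 and cct-8, whereas 9.42% of protein-coding genes had one. The median pooled value over the 6 genes with an entry was 24.4, and over the 5096 protein-coding genes with one it was 8.83. No test was made of these counts, because the genes were picked for description with results of these data known.

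The summits of the replicates were 25 bp apart at cct-1, 12 bp at cct-8, 5 bp at cct-7 and 74 bp at cct-6. Among 462 protein-coding genes with a reproducible peak and a summit in both replicates the median gap was 24 bp. Among 1508 other protein-coding genes with a summit in both it was 90 bp. The gaps at cct-8 and cct-7 were below the smaller median, that at cct-1 was close to it, and that at cct-6 lay between the medians. The gap at cct-4, 233 bp, was wider than both medians, and its entries in the replicates need not be one site.

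**Figure D2:**
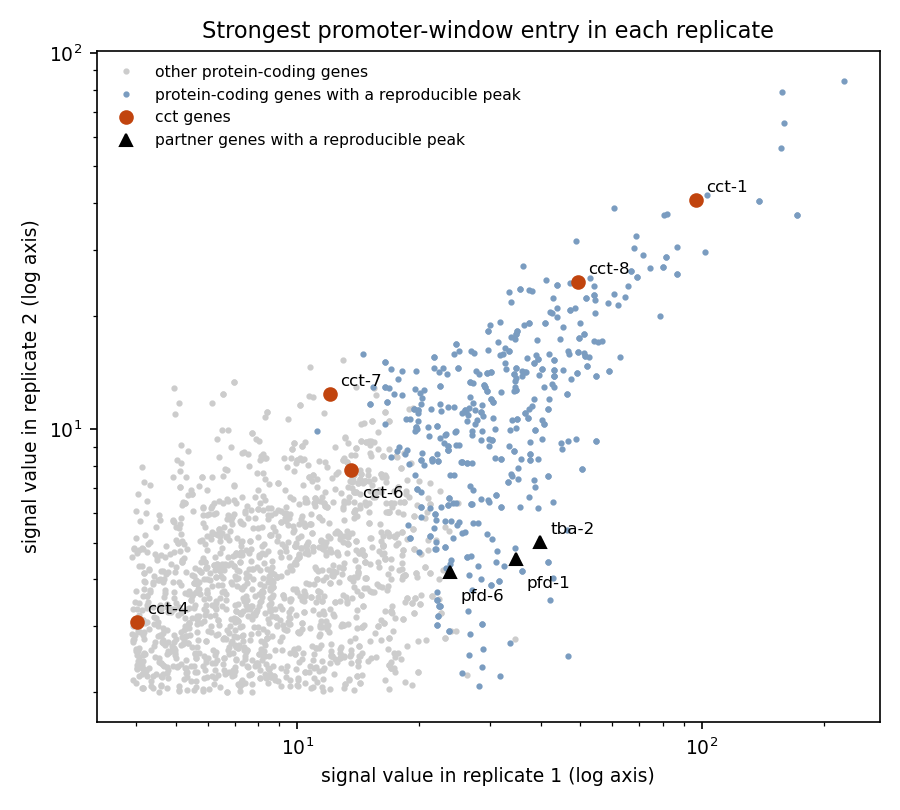
Signal value of the strongest window entry in replicate 1 (x, log axis) and replicate 2 (y, log axis) for protein-coding genes with an entry in both, grey without and light blue with a reproducible peak; orange points are cct genes and black triangles the partner genes with a reproducible peak. cct-1 (96.6 and 40.7) and cct-8 (49.4 and 24.6) lie high in both replicates, cct-7 and cct-6 lie lower, and the 3 partner genes are lower in replicate 2 than cct-1 and cct-8.

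**Figure D3:**
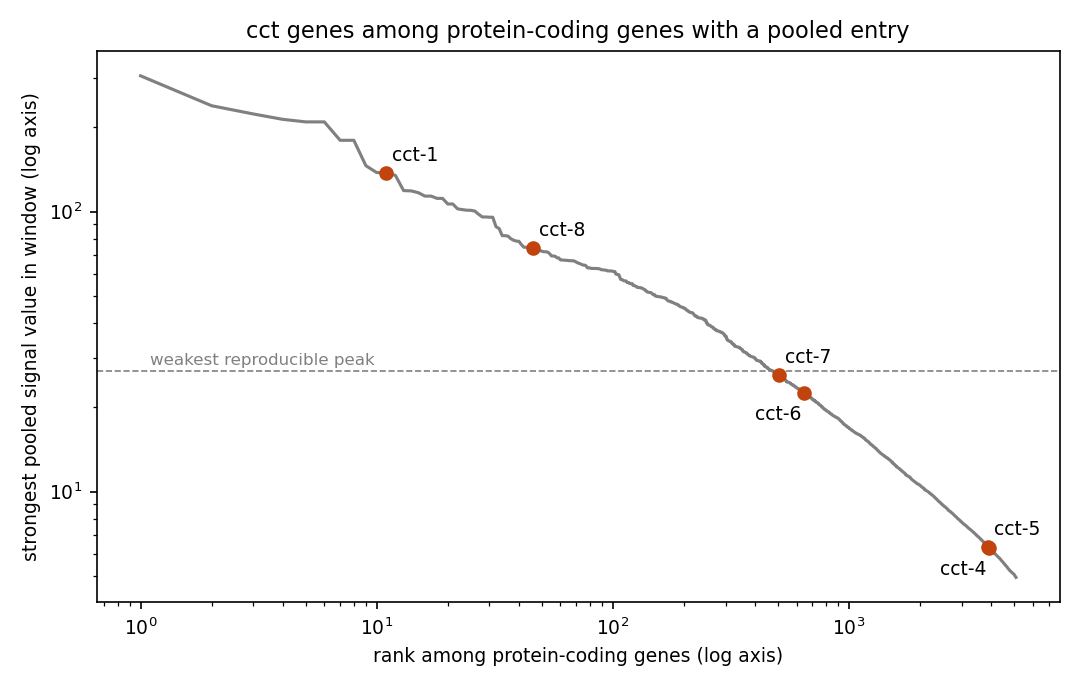
Strongest pooled signal value in the window (log axis) against rank among the 5096 protein-coding genes with a pooled entry (log axis), with the cct genes as orange points and the weakest reproducible peak (26.9) as a dashed line. cct-1 is at rank 11 and cct-8 at rank 46, cct-7 is just under the line and cct-6 lower, and cct-4 and cct-5 overlap near the low end.

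All 8 cct genes had a divergent upstream neighbour, meaning that the first protein-coding gene upstream was transcribed in the opposite direction. Over all protein-coding genes 45.4% had this arrangement. In 6 of the 8 the starts were at most 1000 bp apart, against 17.5% of protein-coding genes. Divergent genes this close had a reproducible peak in 6.97% of cases, counting both genes of a pair when they share one, and the other protein-coding genes in 1.41%. Of the 6 such cct genes, cct-1 and cct-8 had one.

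Each of the 4 stronger sites also lay in the promoter window of the neighbour. The cct-1 summit was 177 bp upstream of mig-5, which encodes a Dishevelled protein of Wnt signalling and starts 420 bp from cct-1. The cct-8 summit was 155 bp upstream of Y55F3AR.2, whose start is 621 bp from that of cct-8. The cct-7 summit was 148 bp upstream of T10B5.4 (439 bp between the starts). It was also 25 bp upstream of the noncoding RNA gene T10B5.13, which lies between them. The cct-6 summit was 19 bp upstream of alh-9, of the aldehyde dehydrogenase family (331 bp between the starts).

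In all 4 cases the distance to the neighbour was shorter than that to the cct gene, which was 243 bp at cct-1, 466 bp at cct-8, 291 bp at cct-7 and 312 bp at cct-6. In each replicate alone the neighbour's start was also the nearer at these 4 genes. When each peak was given only to the nearest protein-coding start, 0 of the 8 TRiC genes kept a peak, while 557 protein-coding genes (2.79%) had one by that rule. The peak lists cannot assign a site to one gene of a divergent pair. A close divergent pair did not by itself carry a strong entry, since cct-4 starts 459 bp from nst-1, which encodes a nucleostemin homologue, and its window held 6.30. The starts of cct-5 and F25F2.1 are 741 bp apart, and the pooled summit of 6.36 lay 444 bp upstream of cct-5 and 297 bp upstream of F25F2.1. The noncoding RNA gene Y55F3AR.4 starts 167 bp upstream of cct-8 on the other strand, and its window did not hold the cct-8 summit.

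TGCGC and TAAT were the only searched words found in all of the printed sequences. No share over other summits was computed for sequences of the printed length, so this does not set these sites apart. TAAT is a common word, with a match in 95.3% of protein-coding promoters from 250 bp before to 50 bp after the start. The list of words was chosen with earlier results on these summits known, and counts are descriptions. Words were counted on both strands within 100 bp centred on each summit. TGCGC and GCGCGC can overlap, and GCGCGC and GAANNTTC read the same on both strands.

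TGCGC was present at 5 of the 6 pooled cct summits, cct-1, cct-4, cct-5, cct-7 and cct-8. It was present at 34.8% of all reproducible summits, at 47.0% of those in a promoter window and at 6.58% of the other pooled summits. Its first base was 41 bp from the summit at cct-1, 13 bp at cct-8 and 10 bp at cct-7. At cct-6 a match starting 49 bp from the summit reached past the counted window. As both weak entries, at cct-4 and cct-5, held the word too, it did not separate strong from weak cct sites.

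GTCTC was present at cct-1, starting 1 bp from the summit, and in 2 copies on opposite strands at cct-6. That made 2 of 6 summits, against 39.4% of reproducible and 13.8% of other pooled summits. Of the 6 cct summits, only those of cct-1 and cct-8 were reproducible. The homeodomain core TAAT was present at cct-1, cct-6 and cct-7 (3 of 6), against 33.2% of reproducible and 62.1% of other pooled summits. At cct-8 a TAAT match started 78 bp from the summit, outside the counted window. The word CTGCGTC was at 0 of 6, against 13.4% of reproducible and 1.75% of other pooled summits. The repeat GAGAGAG was also at 0 of 6 (13.8% and 3.18%), as was the palindrome GCGCGC (11.1% and 1.15%). With shares this low, 0 of 6 does not set the cct summits apart. The GC content of these 100 bp was 54% at cct-1, 56% at cct-7, 52% at cct-8, 42% at cct-6, 43% at cct-4 and 42% at cct-5. Over the 748 reproducible summits it was 48.5% ± 7.93 (SD), and over the other pooled summits 35.8% ± 8.94 (SD).

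GAANNTTC is the core of the element recognised by the heat shock factor HSF-1, which controls many chaperone genes. It was searched from 250 bp before to 50 bp after each gene start, where 18.6% of protein-coding genes had a match. In that stretch 5 of the 8 TRiC genes had a single match. The matches were GAATATTC at cct-1 (first base 192 bp upstream), GAAAATTC at cct-3 (22 bp), GAATATTC at cct-5 (150 bp), GAATTTTC at cct-7 (159 bp) and GAAGTTTC at cct-8 (189 bp). The word was at 0 of the 6 pooled cct summits, and at 3.74% of reproducible and 6.93% of other pooled summits. Matches that started 51 bp from the summit at cct-1 and 81 bp at cct-8 lay outside the counted 100 bp. The genes with a match included cct-3, which had no entry in any list, and cct-1, which had the strongest.

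Other genes of the folding pathway were compared by a list of 36 names, here called partner genes. It covered prefoldin, tubulin folding cofactors, tubulins, actins and WD-repeat substrates. The 36 also include the heat shock factor gene hsf-1 and hsp-60, of the mitochondrial chaperonin. These were listed as related genes and not as TRiC partners, and they are part of every count below. A reproducible peak was found at 3 of the 36, pfd-1, pfd-6 and tba-2, against the same 2.39% of protein-coding genes. Prefoldin had 2 of 6 subunit genes, tubulins 1 of 13, and the other groups none. In the pooled list 21 of the 36 had a summit in the window, against 25.5% of protein-coding genes. The pfd-1 summit, 339 bp from its start, also lay in the window of F01G4.6, 270 bp from that start, and 4 bp from the start of the noncoding RNA gene C08F8.13.

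These partner peaks were weaker than those of cct-1 and cct-8. The strongest window entry of each gene ranked far higher in replicate 1 than in replicate 2. Such a difference also occurred at some other genes with a reproducible peak, and how common it was among them was not counted. For example, K08D12.3 had 30.0 in replicate 1 and 3.86 in replicate 2. The values were 31.7 and 2.21 at F02C12.3, whereas F55G7.1 had 19.6 and 14.3. pfd-1 had a reproducible signal value of 36.4, with rank 248 in replicate 1 and rank 4551 in replicate 2. That replicate 2 entry was another summit, because replicate 2 had none in the window of F01G4.6, which holds the pfd-1 peak. pfd-6, another prefoldin subunit gene, had 28.7, with ranks 581 and 5653. tba-2, which encodes an alpha tubulin, had 45.6, with ranks 180 and 3422. Among the 748 strongest entries of replicate 2 alone, 0 of the 36 partner genes had a summit in the window. Of all protein-coding genes 2.12% had one, a share at which 36 genes may well include none. The TRiC genes with such a summit were cct-1, cct-7 and cct-8. The strongest summit in the window of hsp-60, the mitochondrial chaperonin, was a candidate entry of 9.72. A reproducible peak reached hsp-60 when any base of the interval counted, or when 1000 bp upstream and 200 bp downstream were scored. The actin genes reached at most 8.52 in the pooled list.

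**Figure D4:**
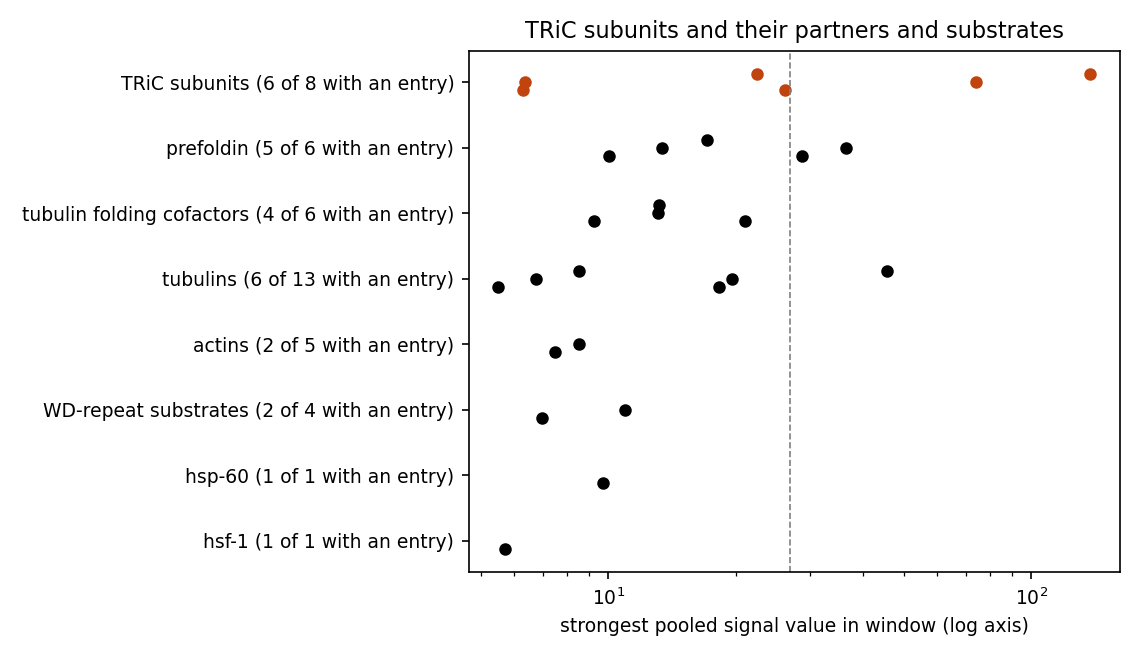
Strongest pooled signal value in the window (log axis) for each TRiC subunit gene (orange) and each partner or substrate gene (black) with a pooled entry; vertical offsets only separate points, and the dashed line is the weakest reproducible peak (26.9). The values 138 and 74.3 of cct-1 and cct-8 lie to the right of all partner genes, of which tba-2 is the highest at 45.6.

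The reproducible promoter peaks most like those of cct-1 and cct-8 were found by the smallest summed difference in log2 signal value over the 2 replicates, among 460 protein-coding genes. For cct-1 these were cox-5A, of the cytochrome c oxidase complex (103 and 42.0 in replicates 1 and 2, summed difference 0.13), and eelo-2 (summed difference 0.36). For cct-8 they were icd-2 (47.2 and 24.6, 0.07) and rps-28, a protein of the small ribosomal subunit (52.7 and 25.2, 0.13).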

How the data were processed

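Peak lists from 2 biological replicates of 1 group were used. Per the text files deposited with them, the authors called candidate entries on each replicate and on the pooled alignments, with a control, and derived the reproducible list from those lists by an irreproducible discovery rate threshold. For the aligner, caller, threshold and scale, the sources used here give nothing. Entries were ranked within a list by their signal value as deposited. The lists are on ce11, and every entry lay inside the WBcel235 chromosomes. The same lists on ce10 were not used here.

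Gene starts came from the Ensembl release 115 annotation, and RefSeq gave the same starts for all 8 genes. Sequences are from the RefSeq WBcel235 assembly. Coordinates are 1-based. Window and word scoring was checked on planted positions. Scripts ran in Python 3.11.15 with NumPy 2.4.6 and, for plots, matplotlib 3.10.9.

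Members and gene lists were chosen with earlier results of these data known, so no test was made, and counts stand beside the share of all protein-coding genes. Tubulin genes were taken by the names tba, tbb and tbg-1, which leaves out any tubulin gene of another name. Named genes are all members, genes sharing their windows or starting within 1000 bp on the other strand, partners with a peak, and the 2 most similar peaks. The hsp-60 and actin values, T10B5.13, the more distant neighbours and the choice of printed sites were added after the values were seen. The examples K08D12.3, F02C12.3 and F55G7.1 fall outside these rules too. Other windows, gene starts, thresholds and single replicates were tried.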

Additional observations from a re-analysis of the deposited data

How the results depend on the processing

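The count of 2 TRiC genes with a reproducible peak fell to 1 (cct-1) when only 250 bp upstream and 50 bp downstream were scored, and to 0 with each peak given to the nearest protein-coding start within 2 kb (557 protein-coding genes had one by that rule). With single replicates it was 2 to 3, the added gene being cct-7 in replicate 2. It stayed at 2 when 1000 bp upstream and 200 bp downstream were scored, and with every transcript start, whole intervals, peaks at or above the median signal, and start codons in place of gene starts (the last added after the data were seen). Taking the strongest pooled entries could not change a count, because they are the reproducible list. The count over all protein-coding genes, 477, was 314 with the smaller window, 265 with peaks at or above the median signal and 423 to 461 with single replicates. The partner count of 3 was 1 with peaks at or above the median signal and 0 to 3 with single replicates, 0 being replicate 2 alone. It was 2 with the smaller window (pfd-6 and tba-2) and with start codons (pfd-1 and pfd-6), and 4 with the larger window or whole intervals (hsp-60 added). With the nearest start it was 3, with gpb-1 in place of pfd-1, so prefoldin fell from 2 to 1 of 6 genes there and with the smaller window. cct-2 and cct-3 had no pooled entry and so no pooled rank. No paired analysis was possible because there is 1 group. Depth is unknown, so a missing entry does not show that the protein is absent.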

Other observations

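The reproducible list was identical to the 748 strongest entries of the pooled candidate list (748 of 748 intervals shared). A gene's place in it therefore followed its pooled signal value alone. Under that order pfd-1 is inside the list, although its replicate 2 entry (rank 4551) was another summit. The cct-7 site, with rank 338 in replicate 2 and 2619 in replicate 1, is outside. These are values only, and which replicate better reflects binding was not tested.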
